A study of Mus musculus with 9 samples.

Results

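The genes described here are 48 mouse genes for histone lysine methyltransferases and demethylases, chosen by symbol from the 43432 gene identifiers in the count table. They comprise 28 genes of the SET-domain family outside Polycomb repressive complex 2 (PRC2) together with Dot1l, and 20 genes of the KDM and Jumonji (JmjC) demethylase families. The rule reads symbols and no measured value. All 48 passed the filter on low counts, as did 13685 genes in all, and the lowest count of any of them in any library was 414.

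The study sequenced messenger RNA from regulatory T cells (Tregs) of C57BL/6 mice. The 4 Ezh2-deficient cultures carried Foxp3-Cre-GFP, R26-LSL-RFP and Ezh2-fl/fl, so that the recombinase driven by Foxp3, the lineage factor of Tregs, deletes the floxed Ezh2 allele in Foxp3-expressing cells and their progeny. The 5 WT cultures carried the same Foxp3-Cre-GFP and R26-LSL-RFP alleles with Ezh2-+/+, except WT replicate 1, which was Ezh2-fl/+. All cultures began from sorted CD62L-high Tregs, received beads coated with anti-CD3 and anti-CD28 and 2000 U/ml IL-2, and were collected on day 4. The sources used here give no ages. The libraries are called biological replicates by the submitters, but whether each came from its own animal is not stated.

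Libraries held 33718125 to 62201921 counts in Ezh2-deficient cultures and 32469450 to 59796319 counts in WT cultures. Levels are given as CPM, counts scaled to a common library size. Ezh2 itself had 153, 167, 164 and 159 CPM in Ezh2-deficient replicates 1 to 4, against 268, 332, 288, 234 and 360 CPM in WT replicates 1 to 5. The groups did not overlap, and the log2 fold change was −0.88 (adjusted p = 0.000363). Ezh1, the paralogous enzyme of PRC2, differed by 0.24 (adjusted p = 0.0974). The summed level of 7 Treg markers was 10511 to 11352 CPM in Ezh2-deficient cultures and 9515 to 10328 CPM in WT cultures. Of the 7, 1 was called higher, Foxp3, at 1647 to 1968 CPM in Ezh2-deficient cultures against 1293 to 1542 CPM in WT. Il2ra was the largest part of the sum, and the list also holds Cd4 and Cd3e. Markers of other cells were also present. The summed B-cell markers reached 420 to 566 CPM in Ezh2-deficient cultures, against 557 to 849 CPM in WT, with 2 of 5 (Cd79a and Ighm) lower. Nearly all of the B-cell sum was Ighm (405 to 548 CPM in Ezh2-deficient cultures, 539 to 832 CPM in WT). The summed myeloid markers reached 20.1 to 27.7 CPM in Ezh2-deficient cultures, against 9.04 to 17.5 CPM in WT, with 2 of 5 (Itgam and Adgre1) higher while Lyz2, Cd14 and Csf1r were near 0. The summed markers of CD8 T cells spanned 14.2 to 130 CPM in Ezh2-deficient cultures, against 16.2 to 147 CPM in WT. Those of NK cells spanned 3.91 to 26.9 CPM in Ezh2-deficient cultures, against 5.63 to 16.7 CPM in WT, with Ncr1 at 0 in every library. Those of conventional CD4 T cells spanned 158 to 206 CPM in Ezh2-deficient cultures, against 173 to 230 CPM in WT. Nearly all of that sum was Tcf7 (153 to 200 CPM in Ezh2-deficient cultures, 167 to 226 CPM in WT). Over all libraries Cd40lg had 3.79 to 7.23 CPM and Il2 had 0.123 to 0.505 CPM. By the same test, 13.1% of all tested genes were higher and 8.8% lower. In bulk RNA, fewer cells of a type and less RNA per cell cannot be told apart, and the part of these cells in the results below was not tested.

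Histone lysine methylation is written by SET-domain enzymes and by Dot1l, and erased by flavin-dependent (Kdm1) or JmjC demethylases. Methylation of H3K4 marks promoters and enhancers, H3K36 the bodies of transcribed genes, and H3K9 and H4K20 heterochromatin, while H3K27 methylation is laid down by PRC2, whose catalytic subunits are Ezh2 and Ezh1. The JmjC enzymes need oxygen, iron and 2-oxoglutarate, and several of their genes are themselves induced in low oxygen.

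Of the 48 genes, 5 were higher and 2 lower in Ezh2-deficient Tregs at an adjusted p below 0.05 (edgeR quasi-likelihood test with Benjamini-Hochberg adjustment over all 13685 genes), the threshold behind every call named here. The 5 higher genes were Kmt2c, Kdm3b, Setd7, Kmt2a and Ash1l, and the 2 lower genes were Kmt2b and Kdm8. These 7 made up 14.6% of the members, beside 21.9% of all tested genes (13.1% higher and 8.8% lower). Log2 fold changes of the members ran between −0.48 (Smyd5) and 0.62 (Kmt2c), with a median of −0.01 against 0.0 for all genes. Their median absolute change was 0.18 on the log2 scale, against 0.24 for all genes. None passed a 2-fold change in either direction, while 8.62% of all genes did. The values of the groups did not overlap for 7 members (14.6%), 5 higher and 2 lower, against 21.2% of all genes (12.5% higher and 8.69% lower). An unadjusted p below 0.05 was reached by 16 members, 9 of them higher, against 37.0% of all genes. On omitting Ezh2-deficient replicate 1, 2 or 3, and likewise WT replicate 2, 3 or 4, the count of higher members was 3. That of lower members was 1 without Ezh2-deficient replicate 1, 4 without Ezh2-deficient replicate 2 and 6 without WT replicate 5.

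**Figure D1:**
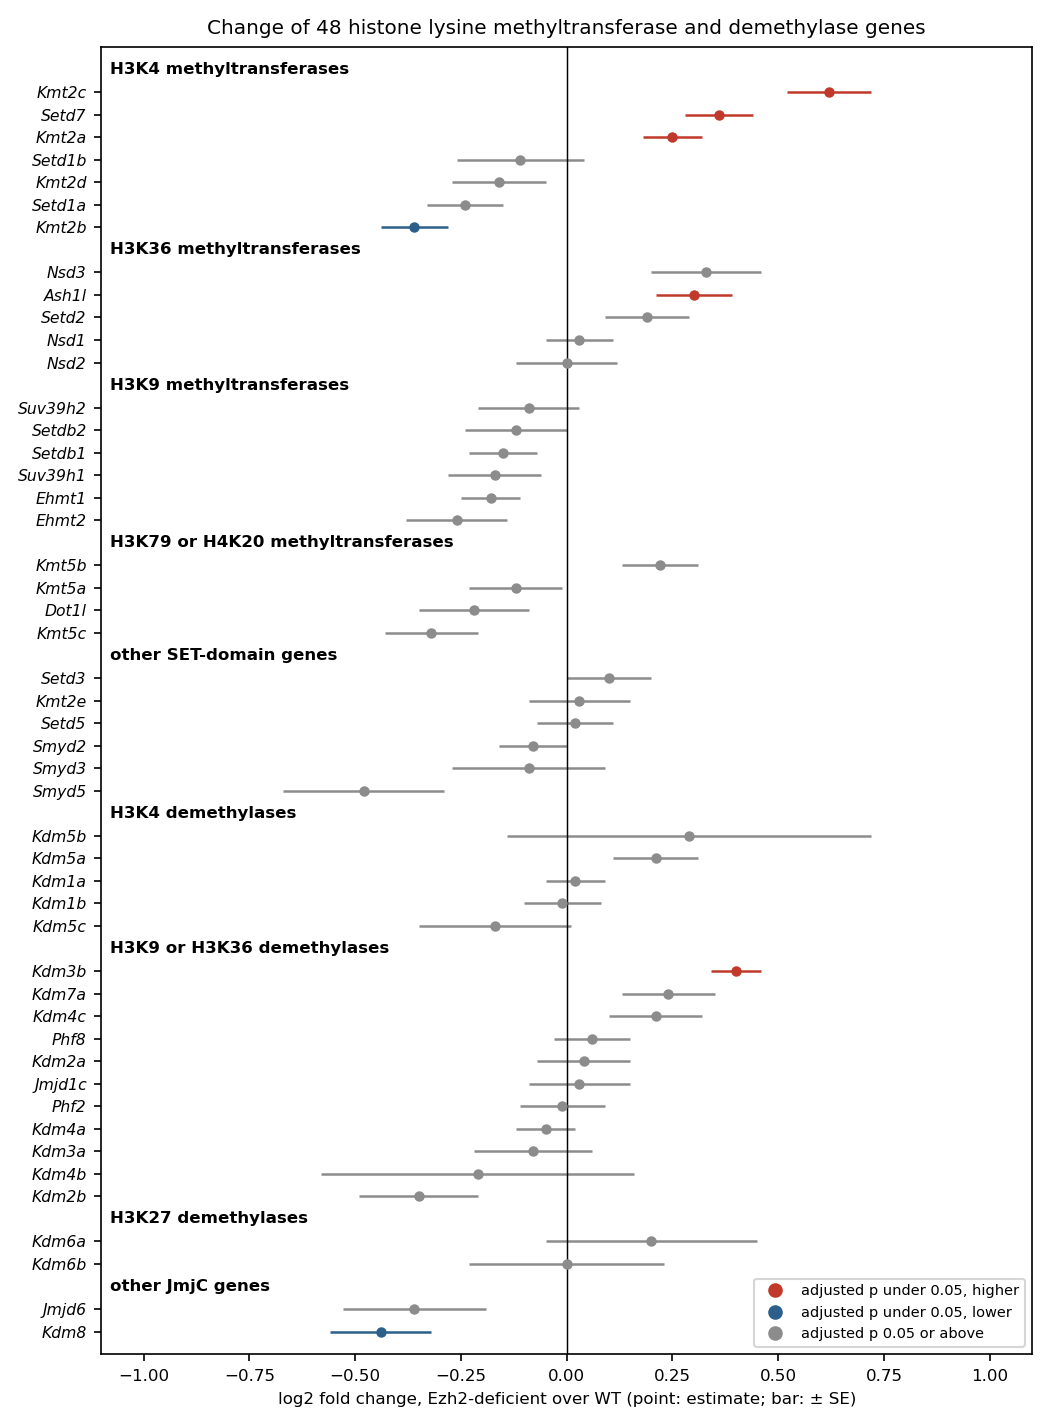
Log2 fold change of the 48 genes, Ezh2-deficient over WT (horizontal axis), one gene per line in groups by role, with bars of ± 1 SE from the edgeR fit; red (higher) and blue (lower) mark an adjusted p below 0.05. The 7 called genes lie between −0.44 and 0.62, and the widest bars belong to Kdm5b and Kdm4b.

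Levels were compared between genes as CPM per kilobase of exon. Ehmt2 was highest in both groups, at 39.4 ± 6.41 in Ezh2-deficient and 47.2 ± 6.44 in WT cultures (SD, n = 4 and 5). Smyd3 was lowest, at 1.81 ± 0.46 in Ezh2-deficient and 1.93 ± 0.388 in WT cultures. Nsd3, an H3K36 methyltransferase, ranked second in Ezh2-deficient cultures at 32.2 ± 5.12, and WT cultures had 25.6 ± 3.74. The H3K27 demethylases Kdm6a and Kdm6b stood at 13.3 ± 3.96 and 9.65 ± 2.14 in Ezh2-deficient cultures and 11.6 ± 3.71 and 9.62 ± 2.79 in WT cultures, which differ by less than the spread between libraries in either group.

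**Figure D2:**
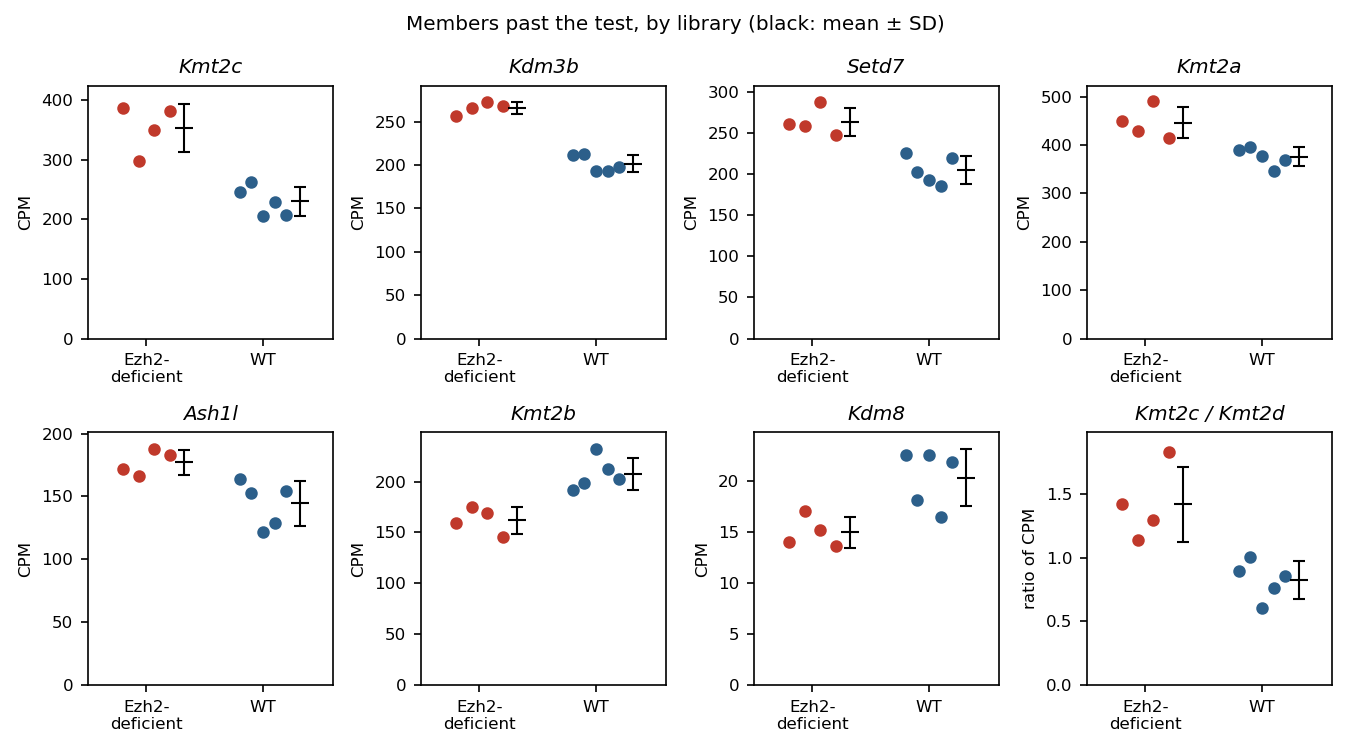
Level of each of the 7 called genes in every library (points, CPM, vertical axes starting at 0), Ezh2-deficient left and WT right, with black marks for mean ± SD; the last panel shows the ratio of Kmt2c to Kmt2d. The groups separate completely for 6 genes and for the ratio, and overlap for Kdm8, where Ezh2-deficient replicate 2 (17.0 CPM) lies above WT replicate 4 (16.5 CPM).

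Of the 7 H3K4 methyltransferases, 3 were higher, 1 was lower and 3 were not called, beside 13.1% of all tested genes higher and 8.8% lower. DESeq2 called 2 lower, the additional gene being Setd1a (−0.24, adjusted p = 0.0695 with edgeR and 0.0368 with DESeq2), which also had an unadjusted p below 0.05. Kmt2c, which methylates H3K4 at enhancers as the core of an MLL3 complex, had 386, 298, 349 and 381 CPM in Ezh2-deficient replicates 1 to 4, against 245, 263, 206, 229 and 207 CPM in WT replicates 1 to 5. Every Ezh2-deficient library lay above every WT library. The means were 354 ± 40.4 CPM in Ezh2-deficient cultures against 230 ± 24.6 CPM in WT cultures (SD), a 1.54-fold difference (log2 fold change 0.62, SE 0.10, adjusted p = 0.0013). Setd7, a mono-methyltransferase of H3K4 and of many non-histone proteins, had 261, 259, 288 and 248 CPM in Ezh2-deficient cultures, against 226, 203, 193, 186 and 220 CPM in WT, again without overlap (0.36, SE 0.08, adjusted p = 0.00736). Kmt2a, the MLL1 enzyme required for Hox gene expression, had 449, 430, 490 and 415 CPM in Ezh2-deficient cultures, against 389, 396, 378, 347 and 369 CPM in WT (0.25, SE 0.07, adjusted p = 0.0334). Its groups did not overlap either. Kmt2b, the MLL2 enzyme that methylates H3K4 at bivalent promoters, had 159, 175, 169 and 145 CPM in Ezh2-deficient cultures, against 192, 199, 232, 212 and 202 CPM in WT cultures (−0.36, SE 0.08, adjusted p = 0.00932), and every WT library exceeded every Ezh2-deficient one. Kmt2d, the MLL4 paralogue of Kmt2c, was not called, with 272, 261, 269 and 208 CPM in Ezh2-deficient cultures, against 273, 260, 339, 300 and 241 CPM in WT (−0.16, 95% interval −0.38 to 0.05, adjusted p = 0.302).

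Kmt2a lost its call in 10 of 20 alternative analyses (other scalings, filters, tests and covariates, or single libraries left out), among them those without Ezh2-deficient replicate 1, 2 or 3 and those without WT replicate 2, 3 or 4 (log2 fold change 0.18 to 0.26 over all alternatives, adjusted p up to 0.154). Kmt2c and Setd7 kept theirs in all 20, and Kmt2b in 19, the exception being the correction for GC content (−0.17, adjusted p = 0.0739).

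Ratios between paralogues need no scaling of library size. Kmt2c relative to Kmt2d was 1.42, 1.14, 1.3 and 1.83 in Ezh2-deficient cultures and 0.899, 1.01, 0.608, 0.764 and 0.857 in WT cultures. Kmt2a relative to Kmt2b was 2.82, 2.46, 2.89 and 2.87 in Ezh2-deficient cultures and 2.03, 1.99, 1.63, 1.63 and 1.83 in WT cultures. Neither pair overlapped between the groups, while the other 6 pairs examined did, and no test was run on the ratios. Both ratios reuse the values of called genes (Kmt2c, Kmt2a and Kmt2b), and no share over other gene pairs was computed. Within each pair the gene with the lower GC content in its exons (Kmt2c, 47.6%; Kmt2a, 50.6%) was relatively higher in the Ezh2-deficient libraries, beside 58.4% for Kmt2d and 59.1% for Kmt2b.

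RefSeq promoter windows (GRCm38.p6, 250 bases before to 50 bases after the start, read along the gene's strand) are printed for the called genes Kmt2c, Setd7 and Kdm8, and for Kdm5b, described below, to show how unlike they are in CG content. Capitals mark CG dinucleotides. The windows lie at chr5:25498734-25499033 (minus strand) for Kmt2c, chr3:51560774-51561073 (minus) for Setd7, chr7:125444370-125444669 (plus) for Kdm8 and chr1:134559928-134560227 (plus) for Kdm5b.
Kmt2c: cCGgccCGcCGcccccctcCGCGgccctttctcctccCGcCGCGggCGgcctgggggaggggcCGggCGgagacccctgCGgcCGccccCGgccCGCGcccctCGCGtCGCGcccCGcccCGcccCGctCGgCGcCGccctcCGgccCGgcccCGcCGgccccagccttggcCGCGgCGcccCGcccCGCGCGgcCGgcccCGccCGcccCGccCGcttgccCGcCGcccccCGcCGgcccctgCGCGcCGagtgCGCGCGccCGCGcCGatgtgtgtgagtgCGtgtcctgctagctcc
Setd7: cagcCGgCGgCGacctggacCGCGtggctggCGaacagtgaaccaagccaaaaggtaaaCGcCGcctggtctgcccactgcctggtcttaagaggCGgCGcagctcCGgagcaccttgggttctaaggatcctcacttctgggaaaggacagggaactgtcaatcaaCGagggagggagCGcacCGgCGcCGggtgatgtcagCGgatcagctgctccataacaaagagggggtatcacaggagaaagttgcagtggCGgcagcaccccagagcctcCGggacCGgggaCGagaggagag
Kdm8: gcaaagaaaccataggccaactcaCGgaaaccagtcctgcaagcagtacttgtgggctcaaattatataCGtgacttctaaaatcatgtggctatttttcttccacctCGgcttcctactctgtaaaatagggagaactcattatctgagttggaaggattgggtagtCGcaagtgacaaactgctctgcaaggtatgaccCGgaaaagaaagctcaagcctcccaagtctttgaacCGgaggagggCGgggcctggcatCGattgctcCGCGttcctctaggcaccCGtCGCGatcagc
Kdm5b: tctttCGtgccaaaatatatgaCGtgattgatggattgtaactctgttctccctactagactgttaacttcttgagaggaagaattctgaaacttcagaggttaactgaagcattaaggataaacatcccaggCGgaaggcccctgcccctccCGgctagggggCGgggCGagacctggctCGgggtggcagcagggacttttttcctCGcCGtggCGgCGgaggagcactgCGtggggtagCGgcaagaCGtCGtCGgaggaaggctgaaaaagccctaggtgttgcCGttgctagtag
The Kmt2c window held 56 CG dinucleotides, a number met or passed by 0.195% of all 32851 windows. Setd7 held 21 (24.8% of windows hold as many or more), Kdm5b 17 (31.4%) and Kdm8 13 (37.9%). The median was 28 for the 48 windows of the 35 members found in the table, against 7 for all windows. The letters ACGTG, 1 form of the core of the element bound by hypoxia-inducible factors, were searched on either strand. They occurred 1 time each in the windows of Kdm5b and Kdm8 and not in those of Kmt2c and Setd7. Of all windows, 19.6% hold them. The form GCGTG was not searched, and it can be read in the printed windows of Kmt2c, Setd7 and Kdm5b. A match here describes the letters only.

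Among the 5 H3K36 methyltransferases, Ash1l alone was called, beside 13.1% of all tested genes higher and 8.8% lower. Ash1l, a Trithorax-group enzyme, had 172, 166, 188 and 183 CPM in Ezh2-deficient cultures, against 164, 153, 122, 129 and 154 CPM in WT cultures (log2 fold change 0.30, SE 0.09, adjusted p = 0.0391). The lowest Ezh2-deficient library lay just above the highest WT library, and the call was kept in 8 of the 20 alternatives. Leaving out any one Ezh2-deficient replicate, or WT replicate 2, 3 or 4, ended it (adjusted p up to 0.141), and with the GC correction the change was 0.19 (adjusted p = 0.0521). Setd2, the enzyme responsible for most H3K36 trimethylation, had 215, 217, 240 and 246 CPM in Ezh2-deficient cultures, against 225, 225, 184, 167 and 206 CPM in WT (0.19, adjusted p = 0.178). Nsd2, which makes H3K36 dimethylation, had 376, 432, 460 and 381 CPM in Ezh2-deficient cultures, against 460, 428, 379, 320 and 470 CPM in WT, with a difference of 0.00 and a 95% interval of −0.22 to 0.23. Nsd1 stood at 0.03, and Nsd3 at 0.33 (adjusted p = 0.0822).

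All 6 H3K9 methyltransferases had negative log2 fold changes, but they share the same libraries and are not independent replicates. None was called with edgeR, beside 21.9% of all tested genes. At an unadjusted p below 0.05 there was 1 (Ehmt1), beside 37.0% of all tested genes. DESeq2 also called Ehmt1, and limma-voom called 0. The values were −0.26 for Ehmt2 (G9a) and −0.18 for its partner Ehmt1 (GLP), −0.17 for Suv39h1 and −0.09 for Suv39h2, which trimethylate H3K9 in pericentric heterochromatin, and −0.15 for Setdb1 and −0.12 for Setdb2. With the correction for GC content described below, Ehmt2 (60.8% GC) stood at −0.04 (edgeR adjusted p = 0.643). The others then stood at −0.18 (Ehmt1), −0.2 (Suv39h1), −0.24 (Suv39h2), −0.19 (Setdb1) and −0.27 (Setdb2), none of them called. Suv39h1 had 119, 147, 147 and 113 CPM in Ezh2-deficient cultures, against 147, 149, 149, 125 and 170 CPM in WT cultures, so the groups overlapped (adjusted p = 0.27). Ehmt1 was the uncalled member whose groups did not overlap, at 96.1 to 103 CPM in Ezh2-deficient cultures, against 105 to 126 CPM in WT (adjusted p = 0.0884).

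None of the 4 genes for H3K79 and H4K20 methylation was called with edgeR, while 2 had an unadjusted p below 0.05 (Kmt5b and Kmt5c), 1 was called with DESeq2 (Kmt5c) and 0 with limma-voom. The shares over all tested genes were 21.9% called with edgeR and 37.0% with an unadjusted p below 0.05. Dot1l, the H3K79 methyltransferase, had 171, 168, 146 and 136 CPM in Ezh2-deficient cultures, against 165, 169, 225, 205 and 144 CPM in WT cultures (−0.22, 95% interval −0.47 to 0.02, adjusted p = 0.218). The enzymes of H4K20 stood at −0.12 for Kmt5a, which makes the monomethyl mark, and at 0.22 for Kmt5b and −0.32 for Kmt5c, which extend it (adjusted p = 0.0963 for Kmt5b and 0.064 for Kmt5c). The other 6 SET-domain genes (Kmt2e, Setd3, Setd5, Smyd2, Smyd3 and Smyd5) included none called with edgeR or limma-voom and 1 (Smyd5) with an unadjusted p below 0.05 and with DESeq2. Smyd5 had the lowest estimate of all members, −0.48 with an SE of 0.19 (adjusted p = 0.0896).

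Of the 20 demethylase and JmjC genes, 1 was higher and 1 lower, beside 21.9% of all tested genes called. Neither was among the 5 H3K4 demethylases, of which 1 (Kdm5a, 0.21) had an unadjusted p below 0.05, beside 37.0% of all tested genes. DESeq2 and limma-voom called 0 of the 5. Kdm3b, a JmjC enzyme that removes H3K9 methyl groups, had 256, 265, 273 and 268 CPM in Ezh2-deficient cultures, against 211, 212, 193, 193 and 198 CPM in WT cultures. The groups stood well apart, with means of 266 ± 7.1 CPM in Ezh2-deficient cultures against 201 ± 9.41 CPM in WT cultures (SD), a 1.32-fold difference (log2 fold change 0.40, SE 0.06, adjusted p = 0.00121), and the call held in all 20 alternatives. Its paralogue Kdm3a, a gene induced in low oxygen, had 142, 114, 117 and 171 CPM in Ezh2-deficient cultures, against 172, 156, 112, 144 and 134 CPM in WT and overlapped between the groups (−0.08, adjusted p = 0.731). The remaining paralogue, Jmjd1c, stood at 0.03.

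Kdm8, a JmjC gene, was the lowest expressed of the called genes, at 14.0, 17.0, 15.2 and 13.6 CPM in Ezh2-deficient cultures, against 22.5, 18.1, 22.5, 16.5 and 21.8 CPM in WT cultures (−0.44, SE 0.12, adjusted p = 0.0258). One Ezh2-deficient library lay above the lowest WT library. The call was kept in 16 of 20 alternatives and lost without Ezh2-deficient replicate 1 (adjusted p = 0.0599), 3 (0.0506) or 4 (0.0545). Kdm2b, an H3K36 demethylase that recruits a variant Polycomb repressive complex 1 to CpG islands, had 38.7, 49.4, 53.5 and 37.5 CPM in Ezh2-deficient cultures, against 51.8, 58.7, 71.9, 56.4 and 47.1 CPM in WT cultures (−0.35, adjusted p = 0.0861). Its groups overlapped, and 4 of the 20 alternatives called it lower. Jmjd6, a JmjC gene, stood at −0.36 (adjusted p = 0.151), and 2 alternatives called it lower.

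The H3K27 demethylases, which remove the mark that Ezh2 lays down, were not called, and 0 of the 2 reached an unadjusted p below 0.05 or a call with DESeq2 or limma-voom. Over all tested genes, 21.9% were called with edgeR and 37.0% had an unadjusted p below 0.05. Kdm6b had 89.2, 57.2, 59.6 and 62.5 CPM in Ezh2-deficient cultures, against 71.7, 72.1, 64.8, 89.7 and 36.3 CPM in WT cultures (0.00, 95% interval −0.44 to 0.45). Kdm6a had 128, 76.4, 150 and 93.3 CPM in Ezh2-deficient cultures, against 144, 83.6, 68.9, 113 and 76.3 CPM in WT (0.20, 95% interval −0.3 to 0.7, adjusted p = 0.601). In each gene the spread within a group was wider than the difference between the groups.

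**Figure D3:**
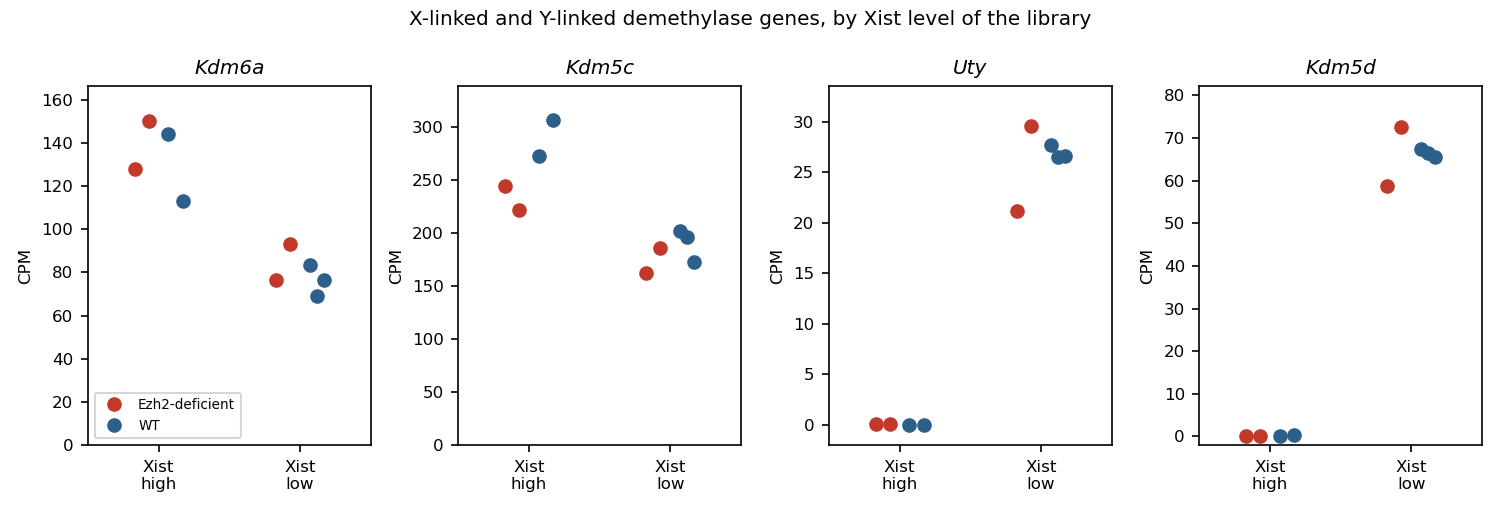
Levels in CPM (vertical axes) of the X-linked Kdm6a and Kdm5c and of their Y-linked counterparts Uty and Kdm5d, one point per library, with libraries above 100 CPM of Xist at the left of each panel and the others at the right. Uty and Kdm5d are near 0 in the 4 libraries high in Xist, and in the same libraries Kdm6a and Kdm5c lie above all others.

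Kdm6a and Kdm5c lie on the X chromosome and are known to escape X inactivation, and the libraries differed in sex-linked RNA. Xist, the RNA that coats the inactive X chromosome, reached 2944 and 3258 CPM in Ezh2-deficient replicates 1 and 3, while replicates 2 and 4 had 2.63 and 3.35 CPM. In WT, replicates 1 and 4 had 2584 and 2109 CPM, and replicates 2, 3 and 5 had 0.895, 0.316 and 0.655 CPM. The Y-linked Kdm5d stood at 0.226, 58.7, 0.0301 and 72.5 CPM in Ezh2-deficient replicates 1 to 4, against 0.0507, 67.4, 66.4, 0.238 and 65.5 CPM in WT replicates 1 to 5, the inverse of Xist. Kdm5c had 244, 162, 221 and 186 CPM in Ezh2-deficient cultures, against 272, 202, 196, 306 and 172 CPM in WT. Each group thus mixed libraries of both kinds. With a covariate for this difference, added after seeing the data, the change of Kdm6a was 0.14 (SE 0.11, adjusted p = 0.39) and that of Kdm5c −0.21 (SE 0.09, adjusted p = 0.122), while without it the SE were 0.25 and 0.18.

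**Figure D4:**
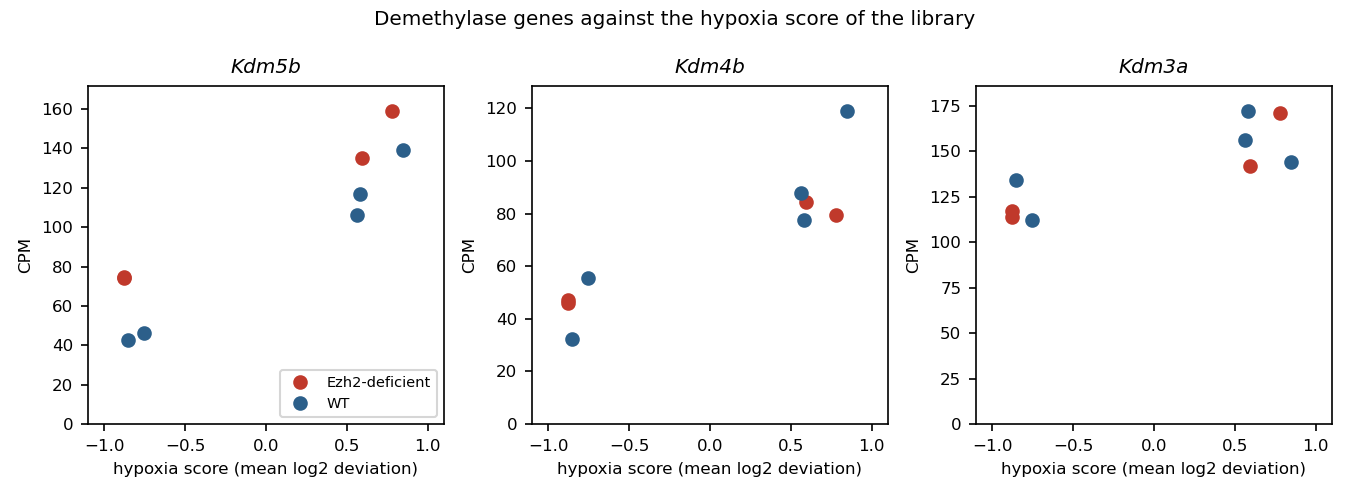
Kdm5b, Kdm4b and Kdm3a in CPM (vertical axes) against the hypoxia score of each library (horizontal axes, mean log2 deviation over 25 hypoxia genes), one point per library, with the Ezh2-deficient points at 74.5 and 74.4 CPM of Kdm5b drawn over each other. The libraries form a low-score and a high-score cluster that each hold both genotypes.

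Kdm5b, an H3K4 demethylase, and Kdm4b, an H3K9 and H3K36 demethylase, varied most between libraries of one group. A score over 25 measured genes of a low-oxygen list was 0.591, −0.875, −0.88 and 0.781 in Ezh2-deficient replicates 1 to 4, while WT replicates 1 to 5 scored 0.583, 0.561, −0.752, 0.845 and −0.854. Within each group Kdm5b kept the order of the score, with 135, 74.5, 74.4 and 159 CPM in Ezh2-deficient cultures, against 117, 106, 46.5, 139 and 42.5 CPM in WT cultures. Kdm4b had 84.5, 47.2, 46.2 and 79.5 CPM in Ezh2-deficient cultures, against 77.6, 87.7, 55.7, 119 and 32.4 CPM in WT. In both genes the low-score libraries were the low ones within each group. The same held for other members, among them the called Kmt2c and Kdm3a, Jmjd1c, Jmjd6, Setd5, Kdm2a and Kdm7a, so it is not particular to Kdm5b and Kdm4b. No correlation is given, as the libraries form separate clusters and none of them has 6 members. Neither Kdm5b nor Kdm4b passed the test between genotypes (Kdm5b 0.29, SE 0.43, adjusted p = 0.662, and Kdm4b −0.21, adjusted p = 0.719). With the score as a covariate, Kdm5b was higher in Ezh2-deficient cultures (0.51, SE 0.1, adjusted p = 0.00387), a call that none of the other 19 alternatives gave, and Kdm4b stood at −0.05. None of the 25 hypoxia genes was called between the genotypes with edgeR (1, Gapdh, had an unadjusted p below 0.05 and was called with DESeq2, and 0 were with limma-voom), with a median log2 fold change of −0.26. Without the covariate, edgeR called 21.9% of all tested genes, and 37.0% had an unadjusted p below 0.05. With the covariate, 10 members were called higher and 6 lower, beside 28.9% of all genes called. Cd8a, a CD8 T-cell marker, was 28.3, 0.936, 0.361 and 79.9 CPM in Ezh2-deficient replicates 1 to 4, while WT replicates 1 to 5 had 35.8, 35.9, 1.98, 97.6 and 41.1 CPM. It was lowest in 3 of the 4 low-score libraries. Its part in these levels was not tested.

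Direction of change went with base composition. Across the 48 genes, Spearman's rho between the log2 fold change and the GC content of the exons was −0.59, beside −0.29 across 13590 tested genes with a value; genes are not independent replicates and share the 9 libraries, and no p is given. Of the 24 members below the members' median GC content of 49.5%, 18 had a log2 fold change above 0, while 19 of the 24 above it were below 0. Exon length gave rho = 0.58 across the members and 0.14 across all genes. The relation also varied between single libraries, with member values of −0.3, 0.12, −0.37 and −0.58 in Ezh2-deficient replicates 1 to 4, while WT replicates 1 to 5 had −0.27, 0.09, 0.67, 0.56 and −0.12. A correction for GC content per library was added after seeing the data. It takes out this relation by construction, and rho was then −0.05 across the members and 0.02 across all tested genes. The corrected fit called 4 members higher (Kdm3b 0.45, Kmt2c 0.55, Setd7 0.29 and Kmt2a 0.23) and 1 lower (Kdm8 −0.37), beside 24.9% of all genes called. Ash1l and Kmt2b missed the threshold there.

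**Figure D5:**
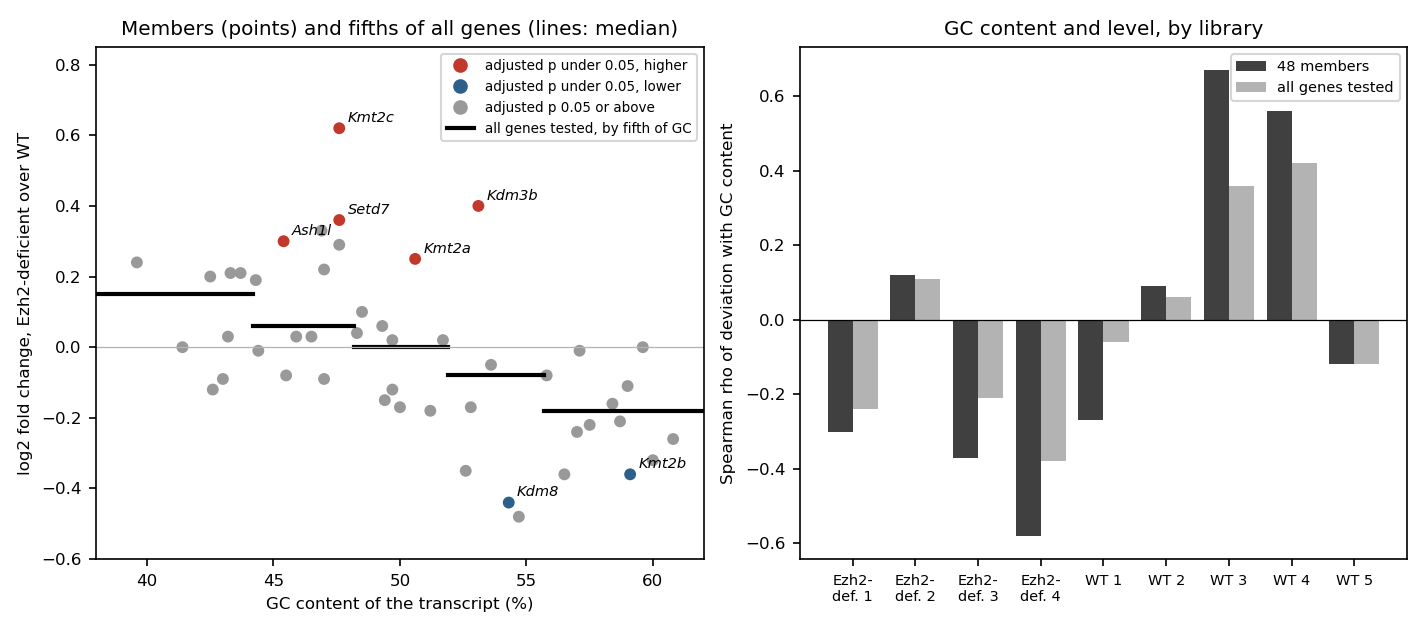
Left, log2 fold change, Ezh2-deficient over WT (vertical axis), against GC content of the transcript in percent for the 48 genes (points, coloured where the adjusted p was below 0.05), with horizontal lines at the median of all tested genes in each of 5 equal bins of GC content, falling in steps through 0.15, 0.06, 0.00, −0.08 and −0.18. Right, Spearman's rho between GC content and each gene's deviation from its mean, per library, for the 48 genes (dark bars) and all tested genes (light bars), lowest in Ezh2-deficient replicate 4 and highest in WT replicate 3 for the 48 genes.

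Genes that work with these enzymes were examined from lists made for the same pathways. Among PRC2 subunits, 2 of 12 tested were lower, Ezh2 and the histone-binding subunit Rbbp7 (−0.32, adjusted p = 0.0168), and none was higher, beside the 8.8% and 13.1% of all genes. Of 15 partner subunits of the H3K4 methyltransferase complexes, 1 was higher and 3 lower, beside 13.1% of all tested genes higher and 8.8% lower, with a median log2 fold change of −0.17 against 0.0 for all genes. Men1 (menin), which joins Kmt2a and Kmt2b to chromatin, had 48.8, 55.1, 42.7 and 49.5 CPM in Ezh2-deficient cultures, against 63.1, 69.5, 74.1, 83.5 and 62.9 CPM in WT cultures (−0.53, adjusted p = 0.00453). The complexes' host cell factors moved in opposite directions, Hcfc2 by 0.34 and Hcfc1 by −0.30, and Pagr1a, a subunit of the Kmt2c and Kmt2d complexes, fell by 0.48 (adjusted p = 0.0374). After the GC correction Men1 stood at −0.34 and Pagr1a at −0.29, both still called.

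Among 13 tested partners of H3K9 methylation, 2 were higher and 3 lower, against shares of 13.1% and 8.8% over all tested genes. Wiz, a zinc-finger partner of Ehmt1 and Ehmt2, had 67.3, 89.8, 73.2 and 65.7 CPM in Ezh2-deficient cultures, against 95.6, 94.2, 124, 105 and 109 CPM in WT cultures, without overlap (−0.51, adjusted p = 0.00757). The H3K9 reader Uhrf1 was lower (−0.45), as was the Setdb1 adaptor Trim28 (−0.31), whose change was −0.12 with adjusted p = 0.335 after the GC correction, while the corepressor Cdyl was higher (0.39, adjusted p = 0.00901). Of 12 tested genes of the complex around Kdm1a, only the repressor Gfi1 was called, while 21.9% of all tested genes were. Gfi1 had 30.1, 37.5, 36.5 and 40.3 CPM in Ezh2-deficient cultures, against 17.3, 18.4, 18.5, 21.2 and 15.0 CPM in WT cultures (log2 fold change 1.0, adjusted p = 0.000193), while Kdm1a itself stood at 0.02 (SE 0.07).

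Among 31 tested genes of a list of other SET, PRDM and JmjC genes, 1 was higher and 3 lower, beside 13.1% higher and 8.8% lower among all tested genes. The list also holds Setbp1, N6amt1, Mettl21a and Camkmt, which belong to none of these families, and the 1 higher gene was Setbp1. Setbp1, which encodes a partner of the oncoprotein SET and is not itself a SET-domain methyltransferase, had 23.3, 17.1, 25.4 and 18.7 CPM in Ezh2-deficient cultures, against 2.52, 2.9, 1.26, 2.01 and 4.53 CPM in WT cultures (2.98, adjusted p = 8.32e-05), and every Ezh2-deficient library was far above every WT library. Setd6, which methylates the NF-kappaB subunit RelA, was lower (−0.76, adjusted p = 0.00403), as were Jmjd8 (−0.64) and the H3K9 methyltransferase gene Prdm2 (−0.34).

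The annotation places another gene over 21 of the 48 members, including all 5 called higher (Kmt2c, Kdm3b, Setd7, Kmt2a and Ash1l) and neither Kmt2b nor Kdm8. As the strand setting of the counting is not given in the sources used here, reads from such pairs may not be told apart. The antisense gene over Kdm3b averaged 0.269 CPM in Ezh2-deficient cultures, beside 0.137 CPM in WT cultures. Dap3, on the opposite strand to Ash1l, averaged 117 CPM in Ezh2-deficient cultures, beside 124 CPM in WT cultures. The gene over Setd7 averaged 4.88 CPM in Ezh2-deficient cultures, beside 3.27 CPM in WT cultures. For the genes over Kmt2a and Kmt2c no level is available. The largest exon overlap was 378 bases for Kmt2a, 274 for Kmt2c, 131 for Setd7, 239 for Ash1l and 3292 for Kdm3b. The part of such reads in the calls was not tested.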

How the data were processed

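Strand-specific poly(A) RNA libraries were made with the TruSeq stranded mRNA kit from 9 Treg cultures, per the labels' protocols. The authors deposited raw counts per Ensembl gene for every library. Alignment used STAR and genome GRCm38, per the submitters' processing notes. What counted the reads, on which strand and with which annotation is not given in the sources used here. Symbols, exon lengths and positions came from GENCODE M21 (42548 of 43432 identifiers found), and promoter sequences from RefSeq.

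The 48 genes and all companion lists were chosen with earlier results of these data known. Counts were filtered with edgeR's default low-count filter (13685 of 22839 genes with a count kept), scaled by trimmed mean of M-values and tested in 1 quasi-likelihood fit of Ezh2-deficient over WT (edgeR 4.0.16, R 4.3.3), after the code had been tested on simulated data. P-values were Benjamini-Hochberg adjusted over all genes tested, with a threshold of 0.05. The biological coefficient of variation was 0.206. Values are CPM on the scaled library sizes, errors are SD, and intervals are the estimate ± 1.96 SE. The SE were derived from the F statistic, so the level of 95% is approximate and the intervals are somewhat narrow. For Ehmt2 the interval of −0.5 to −0.02 excludes 0, while the quasi-likelihood test gave an unadjusted p of 0.0535. The reads carry no molecular identifiers, and no 2 libraries agreed within sampling noise (lowest chi-square per degree of freedom 21.9). Spread between libraries includes any technical share.

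Alternatives were relative log expression and total-count scaling, no filter, DESeq2 1.42.0, limma-voom (limma 3.58.1), a minimum of 1 CPM in 4 libraries, a replicate block, a hypoxia score as covariate and leaving out each library. A sex covariate (Xist above 100 CPM), a GC correction and leaving out the highest Cd8a library of each group were added after seeing the data. Per-library values were set for every called gene and for Kdm6a, Kdm6b, Kmt2a, Kmt2d, Setd2, Nsd2, Suv39h1, Dot1l, Kdm2b and Kdm3a. In companion lists the up to 4 called genes with the smallest adjusted p were named, except that some results are not reported here. Values of Kdm5b, Kdm4b, Kdm5c, Kdm5d, Ehmt1 and Smyd5 are described because of how they looked in the data.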

Additional observations from a re-analysis of the deposited data

Results flagged for a closer look

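Among 96 groups of libraries (48 genes in each genotype), 2 had a library far from the others of its group by Dixon's test; chance gives about 1 in 20 groups. Kdm6b, an H3K27 demethylase gene, reached 89.2 CPM in Ezh2-deficient replicate 1, while the other Ezh2-deficient libraries had 57.2 to 62.5 CPM. Setd1b, an H3K4 methyltransferase gene, reached 79.3 CPM in WT replicate 3, while the other WT libraries had 56.6 to 60.9 CPM. Neither gene was called between the genotypes.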

How the results depend on the processing

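The count of members higher (5) was 3 with no filter, with the replicate block, without the highest Cd8a library of each group and with the sex covariate, and 10 with the hypoxia covariate. It ran between 3 and 5 when single libraries were left out, 3 being the value on omitting Ezh2-deficient replicate 1, 2 or 3, and likewise WT replicate 2, 3 or 4. The count of members lower (2) was 6 with DESeq2 and with the hypoxia covariate and 1 with the GC correction, and ran between 1 (without Ezh2-deficient replicate 1) and 6 (without WT replicate 5), with 4 without Ezh2-deficient replicate 2. Over all genes, 1797 were higher, and 1170 to 1744 without single libraries; 1204 were lower, and 1868 with DESeq2, 663 without the highest Cd8a libraries and 802 to 1477 without single libraries. The lowest all-gene counts, 1170 higher and 802 lower, came without Ezh2-deficient replicate 3. Of 960 values (48 genes under 20 alternatives), 866 kept the side of the threshold with no change of sign counted, 27 lost a call, 24 gained one, and 43, of 14 genes, changed sign. None of these was called in either fit. Under the GC correction they were Kmt2d 0.01, Jmjd1c −0.12, Kdm4b 0.01, Kdm4a 0.01, Kdm2a −0.02, Smyd2 0.03, Nsd1 −0.06, Phf2 0.13, Setd5 −0.01, Setd1b 0.06 and Kmt2e −0.07. Under total-count scaling Kdm1a was −0.01. Without the highest Cd8a libraries Phf2 was 0.05, Kdm1a −0.02, Jmjd1c −0.02, Kmt2e −0.07 and Nsd1 −0.02. Without single libraries the ranges were −0.05 to 0.08 (Jmjd1c), −0.04 to 0.02 (Kdm1a), −0.07 to 0.01 (Kdm1b), −0.05 to 0.07 (Kdm2a), −0.41 to 0.02 (Kdm4b), −0.09 to 0.1 (Kmt2e), −0.03 to 0.04 (Nsd1), −0.1 to 0.03 (Phf2), −0.05 to 0.06 (Setd5) and −0.3 to 0.01 (Smyd3). Kdm6b and Nsd2, at 0.00 in the main fit, had no change of sign counted. Their values still lay on both sides of 0 over all alternatives, from −0.19 to 0.23 (Kdm6b) and from −0.17 to 0.06 (Nsd2). The cause of these changes was not tested.

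Same-numbered libraries did not all deviate together (r = 0.153, −0.083, 0.114 and 0.187 for numbers 1 to 4), and no library correlated best with its own number. The replicate block called 3 members higher and 3 lower. It called Kdm2b (−0.42, adjusted p = 0.0149) and Jmjd6 (−0.46, adjusted p = 0.0134), which edgeR without it did not. With it Kmt2a and Ash1l lost their calls, Kdm8 stood at −0.40 (adjusted p = 0.0653), and Kdm1b was 0.03, Setd5 −0.01 and Jmjd1c −0.04.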

Other observations

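Of 8 tested arginine methyltransferase genes, which modify histones and other proteins at arginine, 4 were lower in Ezh2-deficient Tregs and none was higher, beside 8.8% of all tested genes lower and 13.1% higher. Their median log2 fold change was −0.28, against 0.0 for all genes. Prmt5, the main enzyme of symmetric dimethylation, had 86.7, 78.0, 72.9 and 73.4 CPM in Ezh2-deficient cultures, against 94.2, 90.3, 109, 104 and 104 CPM in WT cultures (−0.37, adjusted p = 0.00949, edgeR with Benjamini-Hochberg adjustment). Prmt2 stood at −0.53, Carm1 at −0.45 and Prmt7 at −0.44 (adjusted p = 0.0473), and these 4 remained below 0.05 after the GC correction.

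Of 20 tested genes that supply or consume the cofactors of these enzymes, 2 were higher and 2 lower, beside 21.9% of all tested genes called. Ahcyl2 was among the higher genes (0.42, adjusted p = 0.0183), and Mtr, methionine synthase, among the lower (−0.38, adjusted p = 0.0183). Of 23 S phase genes, the cyclin gene Ccne1 (−0.53, adjusted p = 0.00256) and the replication licensing gene Cdc6 (−0.35, adjusted p = 0.0398) were lower and none was higher, beside 8.8% and 13.1% of all tested genes.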
